A study of Drosophila melanogaster with 63 samples.

Results

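The 5 Hox genes of the Antennapedia complex, lab, pb, Dfd, Scr and Antp, were examined for peaks of a nucleosome remodelling subunit and of gypsy insulator proteins in a Drosophila cell line. A site belonged to a gene when peaks, merged over every list wherever they shared at least 1 bp, reached the annotated span of the gene or the 5 kb on either side. By this rule 24 of 13309 merged sites in the genome, holding 342 of 190667 peaks, lay at the 5 genes. There were 4 sites at lab, 3 at pb, 3 at Dfd, 5 at Scr and 9 at Antp, numbered from left to right on chromosome arm 3R.

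Hox genes encode homeodomain transcription factors that set the identity of segments along the body axis. In the fly they are grouped in the Antennapedia complex, which acts in the head and anterior thorax, and the bithorax complex, which acts further back. Both complexes are textbook targets of Polycomb repression and of chromatin boundaries that keep regulatory domains apart. NURF301 is the largest subunit of NURF, a remodelling factor that slides nucleosomes. Gypsy insulators are bound on DNA through the zinc fingers of Su(Hw), which recruits CP190 and Mod(mdg4)67.2, a pair of proteins with BTB domains. CP190 also occurs at many sites without Su(Hw).

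The study used Kc167, an established line from female Drosophila embryos, and asked where NURF301 overlaps the gypsy proteins and whether they need each other on chromatin. Peak lists of 46 libraries from chromatin immunoprecipitation with sequencing (ChIP-seq) were used, out of 63 samples. Input chromatin makes up the remaining 17 samples, which have no list here. Control cells, called mock, came in 2 series that carry the same treatment label. Their labels differ only by title (mock and mock2), and each series had 3 libraries for NURF301, CP190 and Su(Hw). The Mod(mdg4)67.2 antibody was used in the mock series alone, with 3 libraries. Knockdown cells received, by transfection, 5 ug of dsRNA that targets Nurf301, Cp190 or su(Hw), and were collected after 4 days. The Nurf301 and su(Hw) knockdowns had 3 libraries each for NURF301, CP190 and Su(Hw). The Cp190 knockdown had 2 libraries each for NURF301 and CP190, and none for Su(Hw). The Kc-MOD-GFP line, labelled as transfected, had 3 libraries with an antibody against GFP. All libraries come from a single cell line and its derivative, and nothing in the labels says that replicates were separate cultures, so the p-values measure only the spread between these libraries.

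Depth was judged by list length, because the sources used here do not give reads per library. Over the 6 mock libraries, NURF301 lists held 4608 to 8226 peaks, CP190 lists 5984 to 10553 and Su(Hw) lists 3990 to 5358. The 2 series did not overlap for CP190, with 10095 to 10553 peaks in mock and 5984 to 8813 in mock2. They did not overlap for Su(Hw) either, with 3990 to 4607 in mock and 5165 to 5358 in mock2. The tests below pool both series. A pair of NURF301 mock libraries stood apart with few peaks, mock replicate 3 with 5449 and mock2 replicate 2 with 4608, and so did CP190 mock2 replicate 1 with 5984. The knockdowns also had shorter lists for proteins that were not targeted. NURF301 lists held 4403 and 4574 peaks after Cp190 knockdown and 1819 to 2027 after su(Hw) knockdown. CP190 lists held 4091 to 5463 after Nurf301 knockdown and 3688 to 4227 after su(Hw) knockdown. Su(Hw) lists held 2625 to 3539 after Nurf301 knockdown. A missing peak therefore moves with the length of the list, and the part of list length in the losses below was not tested.

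Sites held by 4 or more of the 6 mock libraries of an antibody (for Mod(mdg4)67.2 and GFP, by 2 or more of 3) were its reference sites. Of the 24 sites, 22 were a reference site of at least 1 antibody. NURF301 had 16 reference sites at the 5 genes, CP190 14, Su(Hw) 6, Mod(mdg4)67.2 2 and GFP 2. The remaining 2 sites were seen in few lists: pb-3 had a NURF301 peak in 1 of 6 mock libraries, and Dfd-2 a CP190 peak in 2 and a NURF301 peak in 1.

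**Figure D1:**
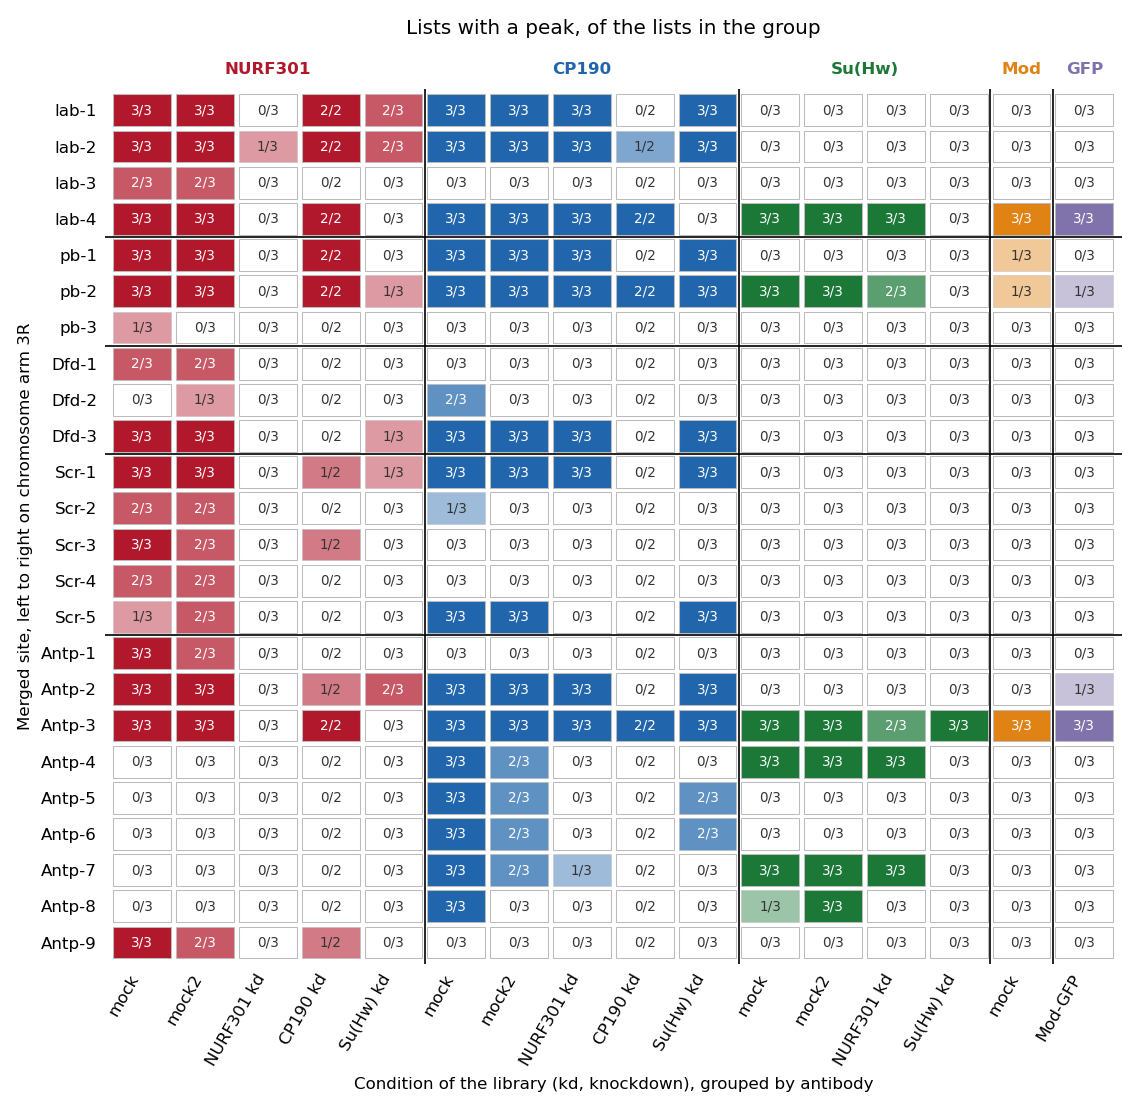
Each row is a merged site and each column a group of libraries. The cell gives the number of lists with a peak over the number of lists, with darker colour for a larger share. Most rows of the NURF301 block have peaks in mock or mock2, while Antp-4 to Antp-8 have none. The block is nearly empty after Nurf301 knockdown, where the 1 remaining entry is lab-2. Antp-3 is the only row with a Su(Hw) peak after su(Hw) knockdown.

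The sites fell into distinct combinations of proteins. NURF301 alone marked 7 of the 22 sites (31.8%, against 16.7% of 11054 such sites in the genome): lab-3, Dfd-1, Scr-2, Scr-3, Scr-4, Antp-1 and Antp-9. NURF301 and CP190 together marked 6 sites (27.3%, against 38.5% in the genome): lab-1, lab-2, pb-1, Dfd-3, Scr-1 and Antp-2. CP190 alone marked Scr-5, Antp-5 and Antp-6, CP190 with Su(Hw) marked Antp-4 and Antp-7, and Su(Hw) alone marked Antp-8. NURF301, CP190 and Su(Hw) met in the merged site pb-2. Only lab-4 and Antp-3 held all 4 proteins, and both were also GFP sites in the cells with Mod(mdg4) fused to GFP. Of the 16 NURF301 sites, 9 were CP190 sites (56.2%, genome 74.3%), and of the 14 CP190 sites these 9 were 64.3% (genome 65.5%). These shares are descriptions of few sites and were not tested against the genome.

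**Figure D2:**
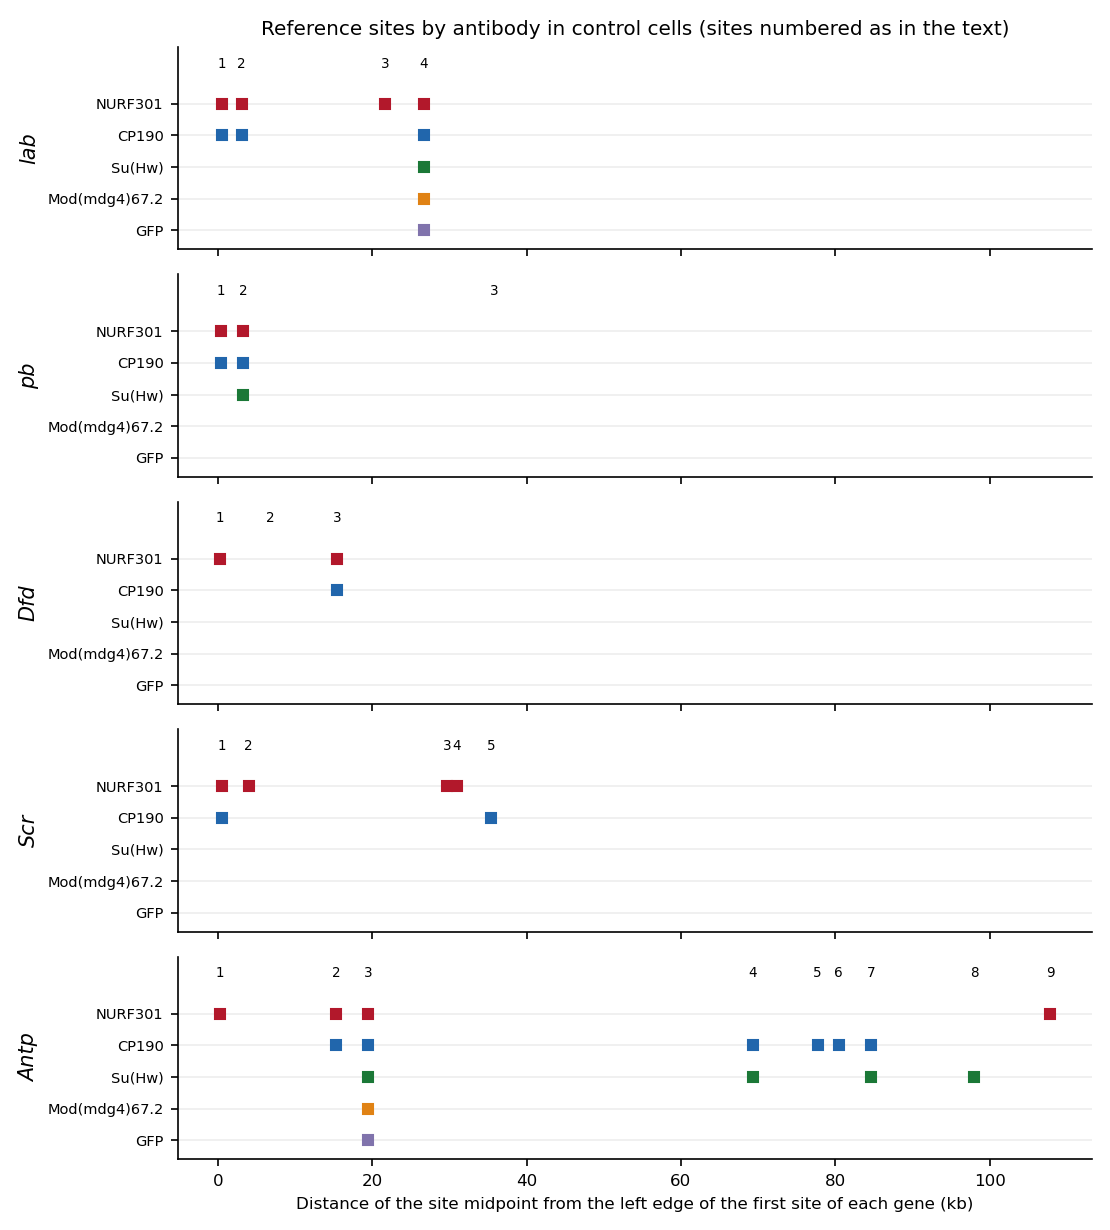
Each panel is a gene, with the midpoint of each reference site placed by its distance in kb from the left edge of the gene's first site, and each row an antibody. Numbers above mark the sites, and pb-3 and Dfd-2 have no marker because they were no reference site. NURF301 markers are absent from Antp-4 to Antp-8, while CP190 and Su(Hw) markers lie there.

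The lab gene, which acts in the head, had 4 sites, of which lab-3 alone touched the gene. Site lab-1 (3R, 6657052 to 6658180) lay at the ends of the neighbours CG1307 and twr, and lab-2 (3R, 6659803 to 6660484) at the ends of twr and agt. Both held NURF301 and CP190 in all 6 mock libraries. Site lab-3 (3R, 6678449 to 6678918) lay across an end of lab and held NURF301 in 4 of 6. Site lab-4 (3R, 6683175 to 6684272) reached the window only with its margin: 18 of its 34 peaks reached the window and none of the 34 summits lay in it, and its nearest protein-coding gene end was that of Edg84A. At lab-4 the median summits of Su(Hw) and CP190 fell on the same base, and that of NURF301 23 bp away.

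The pb gene, which acts in the mouthparts, had 2 reference sites 1644 bp apart. Site pb-1 (3R, 6706062 to 6706912) lay in the flank and held NURF301 and CP190 in all 6 mock libraries, with median summits 11 bp apart. Site pb-2 (3R, 6708557 to 6710114) lay inside pb and held NURF301, CP190 and Su(Hw) in all 6. The summits at pb-2 fell in a pair of positions. The median NURF301 summit was at 6709064 and the median Su(Hw) summit at 6709760, 696 bp away. A NURF301 peak covered the first position in 6 of 6 mock libraries and the Su(Hw) position in 0 of 6, whereas CP190 peaks covered both in 6 of 6. A Su(Hw) peak covered its own position in 6 of 6 mock libraries and that of NURF301 in 2 of 6, both of which listed a pair of Su(Hw) peaks at pb-2. Site pb-3 (3R, 6741737 to 6742075) lay across an end of pb and also in the window of zen2.

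Dfd, a gene of the maxillary and mandibular segments, carried no Su(Hw), Mod(mdg4)67.2 or GFP peak in any list. Dfd-1 (3R, 6791431 to 6791857), across an end of the gene, was a weak NURF301 site, with a percentile of 9.33 at the highest among the 4 lists that held it. A percentile here places the fold enrichment of a peak, the authors' own value, within its own list, with 100 as the strongest. Dfd-2 (3R, 6798026 to 6798445) lay inside the gene. Dfd-3 (3R, 6806432 to 6807287), in the flank, held NURF301 and CP190 in all 6 mock libraries, with CP190 percentiles of 34.0 at the lowest, 83.2 at the median and 95.3 at the highest.

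Scr, which acts in the labial and first thoracic segments, likewise had no Su(Hw), Mod(mdg4)67.2 or GFP peak in any list. Scr-1 (3R, 6819095 to 6820083) lay in the flank over the transfer RNA gene tRNA:Lys-TTT-2-1 and held NURF301 and CP190 in all 6 mock libraries. Scr-2 (3R, 6822814 to 6823314) and Scr-4 (3R, 6849898 to 6850250) lay across the ends of Scr, and Scr-3 (3R, 6848526 to 6849025) just inside, 872 bp from Scr-4. Each of these held NURF301 in 4 or 5 of 6 mock libraries. Scr-5 (3R, 6854187 to 6854749) lay in the flank outside any annotated gene. Its CP190 peak was present in all 6 mock libraries, at percentiles of 98.7, 98.1 and 98.0 in mock and 48.5, 80.7 and 85.9 in mock2. A NURF301 peak was listed at Scr-5 in 3 of 6 mock libraries, below the limit for a reference site.

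Antp, which acts in the thorax, had the most sites, and they formed separate stretches. Antp-1 (3R, 6893022 to 6893557) lay in the flank at lncRNA:CR45559 and held NURF301 in 5 of 6 mock libraries. Antp-2 (3R, 6907876 to 6908760) and Antp-3 (3R, 6911772 to 6913216) lay inside Antp and the overlapping gene CG46458. After a stretch of 48574 bp without a peak in any list came Antp-4 (3R, 6961791 to 6962855), Antp-5 (3R, 6970498 to 6970995), Antp-6 (3R, 6973239 to 6973722), Antp-7 (3R, 6977086 to 6978348) and Antp-8 (3R, 6990830 to 6991297), all inside Antp. None of these 5 sites had a NURF301 peak in any list. Antp-9 (3R, 7000587 to 7001236) lay in the flank at lncRNA:CR45899 and held NURF301 in 5 of 6. CP190 at Antp-8 was listed in 3 of 3 mock and 0 of 3 mock2 libraries, and Su(Hw) there in 1 of 3 and 3 of 3.

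Among the sites of the complex, Antp-2 had the highest median percentile over the mock libraries for NURF301. Its NURF301 percentile was 75.1 at the lowest, 95.3 at the median and 99.4 at the highest of the 6 mock libraries, and its CP190 percentile 35.0, 92.1 and 99.3. Antp-3 had NURF301 peaks of middle to low strength, at percentiles of 43.5, 42.5 and 3.25 in mock and 44.5, 3.60 and 38.1 in mock2. At Antp-3 the Su(Hw) percentiles were 43.7, 47.2 and 39.5 in mock and 14.5, 11.4 and 6.96 in mock2, so that the series did not overlap. Mod(mdg4)67.2 had percentiles of 65.0, 74.2 and 59.4 at Antp-3, and GFP of 95.1, 98.6 and 76.8. The median summits of neighbouring antibodies at Antp-3 lay 1 to 9 bp apart.

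The sites were also placed relative to gene ends. Within 500 bp of an end of a protein-coding gene lay 7 of the 16 NURF301 sites, where the share over the genome was 73.5%. For CP190 it was 3 of 14 (genome 60.4%), and for Su(Hw) 1 of 6 (genome 24.4%). The annotation used holds no strand, so starts of genes were not told apart from their other ends.

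Each knockdown was compared with the 6 mock libraries of the same antibody, which all comparisons of that antibody share. A site was called lost where a two-sided Fisher exact test of peak presence, Benjamini-Hochberg adjusted over all testable sites of the genome, gave an adjusted p under 0.05 with fewer peaks in the knockdown. With 6 against 3 libraries the smallest Fisher p is 0.0119, and with 6 against 2 it is 0.0357, so that a call needs nearly complete loss and also many other sites lost in the genome. No site of the complex was called gained in any of the 8 comparisons, beside 0% of the sites tested in the genome, or 0.0536% for CP190 after su(Hw) knockdown.

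The NURF301 ChIP after Nurf301 knockdown checks the target itself. The 3 lists held 253, 1 and 24 peaks. NURF301 was called lost at 8 of the 16 sites tested in the complex, beside 52.4% of the sites tested in the genome. These were lab-1, lab-4, pb-1, pb-2, Dfd-3, Scr-1, Antp-2 and Antp-3, each with a peak in 6 of 6 mock and 0 of 3 knockdown libraries (adjusted p = 0.0227, Fisher exact test). The 7 sites with NURF301 alone also had no peak in the knockdown, but they were already missing in 1 or 2 mock libraries and were not called. Mock replicate 3 lacked lab-3, Dfd-1, Scr-2 and Scr-4, and mock2 replicate 2 lacked all 7. Without both libraries, a setting added after seeing the data, 15 sites were called in the complex, and 6960 in place of 3875 in the genome. Only site lab-2 kept a NURF301 peak, in 1 of the 3 knockdown libraries, at rank 51 of its 253 peaks. Altogether 15 of the 16 reference sites lacked a peak in all 3 lists, beside 96.4% in the genome. Over the knockdown libraries 2.08% ± 3.61 (SD, n = 3) of the NURF301 reference sites of the complex had a peak. Each mock library was scored instead on the sites that 3 or more of the other 5 held. Of those sites of the complex, 86.3% ± 19.9 (n = 6) had a peak.

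CP190 after Nurf301 knockdown was listed in all 3 knockdown libraries at 9 of its 14 reference sites, beside 41% in the genome. These were the 9 sites that were also NURF301 sites. At the 6 sites with NURF301 and CP190 it was present in every knockdown list, as at 57.0% of 4258 such sites in the genome. At Scr-5, Antp-5 and Antp-6, the sites with CP190 alone, no knockdown list held a peak, as at 91.4% of 419 such sites in the genome. At Antp-4 the peak was absent from the 3 lists as well, and at Antp-7 it was present in 1 of 3. Thus 4 of the 14 had no peak left, beside 35.1% in the genome. Among the controls, the shortest list, mock2 replicate 1, held 5984 peaks beside 4091 to 5463 in the knockdown. It lacked Antp-4 to Antp-7 and no other of the 14. The part of list length in these absences was not tested. None of the 6 sites tested was called lost, beside 0% in the genome. The smallest adjusted p was 0.0524, at Scr-5, by Fisher exact test. At an unadjusted p under 0.05 there were 4 in the complex, beside 48.9% in the genome. Without CP190 mock2 replicate 1, which lacked Antp-4 to Antp-7, the adjusted test called 4 in the complex and 2240 in the genome, where it called 0 with all libraries. Leaving out instead any of the 3 mock replicates, or mock2 replicate 2, gave 1 call in the complex and 1041 or 1042 in the genome. Recovery is the share of the reference sites with a peak in a library. For a mock library, here and below, it is the share of sites that 3 or more of the other 5 held. Recovery averaged 92.2% ± 12.9 (SD, n = 6) in mock and 66.7% ± 4.12 (n = 3) in the knockdown, beside 87.3% ± 15.6 and 53.2% ± 8.27 over the genome. Against the mock series alone, with reference sites taken from it, recovery in the complex was 97.9% in mock and 58.3% in the knockdown. Each mock library was again scored on the sites of the others.

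Su(Hw) after Nurf301 knockdown stayed listed at most of its sites in the complex. Sites lab-4, Antp-4 and Antp-7 had a peak in 3 of 3 libraries, which is 3 of 6 reference sites beside 55% in the genome. Sites pb-2 and Antp-3 had a peak in 2 of 3, and Antp-8 in none, which is 1 of 6 sites without a peak, beside 21.3% in the genome. At Antp-7 the peak was among the strong ones, at percentiles of 97.6, 92.8 and 55.6. A single site, Antp-8, could be tested and was not called, beside 26.9% called in the genome, and no site of the complex passed an unadjusted p under 0.05 by the Fisher exact test, beside 50.4% in the genome. Mean recovery was 94.4% ± 8.61 (SD, n = 6) in mock and 72.2% ± 19.2 (n = 3) in the knockdown, beside 92.3% ± 8.93 and 68.1% ± 10.3 over the genome.

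**Figure D3:**
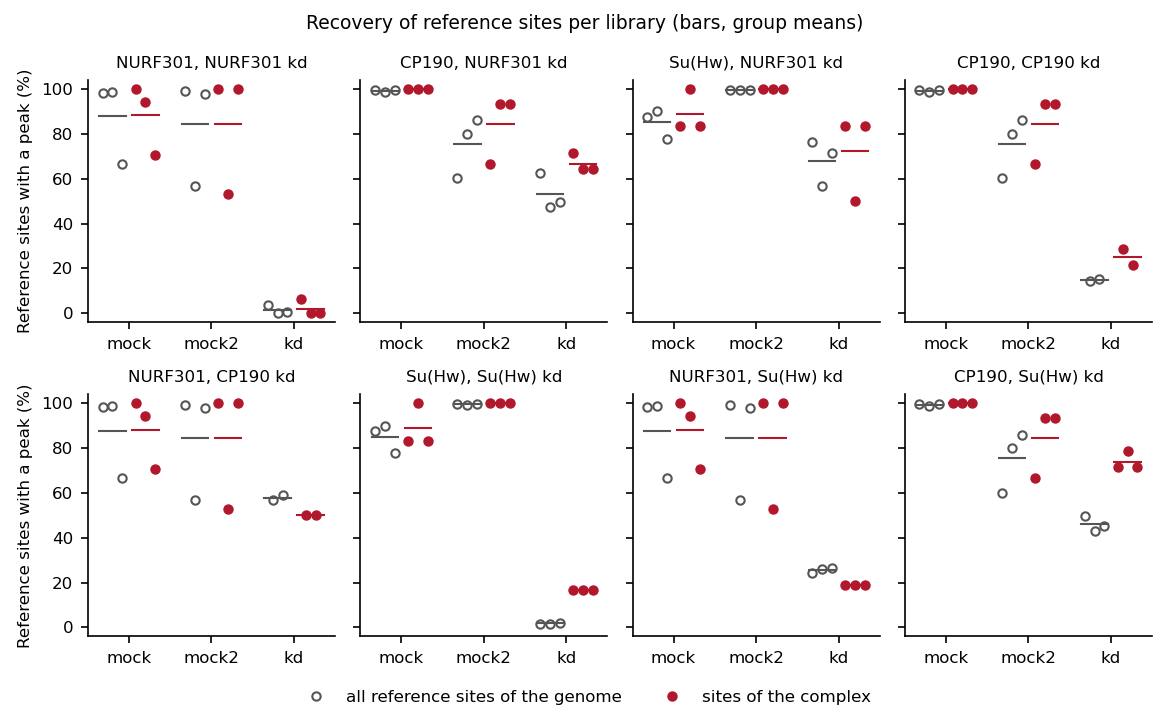
The vertical axis is the percentage of reference sites with a peak in a library, for the complex (filled red) and the genome (open grey), with a bar at the mean of each group, and a panel for each of the 8 comparisons. A mock library was scored on sites that 3 or more of the other 5 held. CP190 after su(Hw) knockdown lies at 71.4% to 78.6% in the complex and at 43.2% to 49.7% over the genome.

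CP190 after Cp190 knockdown tests the antibody's own target, and its lists held 1203 and 1280 peaks. It was called lost at 6 of the 7 sites tested, beside 90.7% in the genome: lab-1, pb-1, Dfd-3, Scr-1, Scr-5 and Antp-2, each with 6 of 6 mock and 0 of 2 knockdown libraries (adjusted p = 0.0394, Fisher exact test). Leaving out any of the 6 mock libraries ended all 6 calls and every call in the genome, since the smallest possible p then rises. Antp-4 to Antp-7 had no peak in either library but were missing in a mock library and could not be tested. With these, 10 of the 14 reference sites had no peak, beside 83.9% in the genome. Site lab-2 kept a peak in 1 of 2. Sites lab-4, pb-2 and Antp-3 kept it in 2 of 2, which is 3 of 14 reference sites beside 13.3% in the genome. All 3 are Su(Hw) reference sites, but at pb-2 the kept peak covered the Su(Hw) summit in 0 of 2 libraries. In the genome, 43.9% of the 1087 CP190 sites kept in both libraries were Su(Hw) sites. Keeping differed by the proteins at a site. Of the 965 sites in the genome with the same proteins as lab-4 and Antp-3, 45.0% kept CP190 in both libraries. For the proteins of pb-2 it was 16.1% of 124 sites. With CP190 and Su(Hw) only it was 0.0692% of 1445, and with NURF301 and CP190 only 13.9% of 4258.

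Antp-3 held one of the strongest CP190 peaks left after Cp190 knockdown. It ranked 14 of 1203 and 9 of 1280 by fold enrichment, with fold enrichments of 28.7 and 30.1. In the mock lists it ranked 7015 of 10553, 6503 of 10095 and 9670 of 10467, and in mock2 1114 of 5984, 2950 of 7988 and 3644 of 8813. The lists differ in length, and a rank among few peaks does not show that the peak grew. Fold enrichments of CP190 at Antp-3 in the 6 mock libraries were 3.52 at the lowest, 7.89 at the median and 17.5 at the highest. Both knockdown values lay above these, and the difference was not tested. At pb-2 the CP190 peak covered the NURF301 summit in 2 of 2 knockdown libraries and the Su(Hw) summit in 0 of 2.

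NURF301 after Cp190 knockdown was kept in both libraries at 6 of its 16 reference sites, beside 51.4% in the genome. They were lab-1, lab-2, lab-4, pb-1, pb-2 and Antp-3, which are all sites shared with CP190. In the genome, sites shared with CP190 differed in this. With NURF301 and CP190 only, 70.1% of 4258 sites kept NURF301 in both libraries, beside 3 of 6 here. With the proteins of pb-2, 42.7% of 124 did. With those of lab-4 and Antp-3, 24.5% of 965 did and 64.1% had no peak. Of the 7 sites with NURF301 alone, 5 had no peak in either library and Scr-3 and Antp-9 had 1, where 61.7% of 1842 such sites in the genome had no peak. Dfd-3 went from 6 of 6 to 0 of 2, so that 6 of the 16 reference sites had no peak, beside 35.6% in the genome. None of 3 sites tested was called, beside 0% in the genome. At an unadjusted p under 0.05 (Fisher exact test) there was 1, Dfd-3 with an adjusted p of 0.111, beside 32.3% in the genome. In the 2 knockdown lists pb-2 stood at percentiles of 96.6 and 98.9 and Antp-3 at 90.3 and 98.4. Each knockdown library held 8 of the 16 reference sites, beside 56.8% and 59.0% over the genome. Among the controls, mock2 replicate 2 had a list of similar length, with 4608 peaks beside 4403 and 4574 in the knockdown. It lacked the 7 sites with NURF301 alone and no other of the 16. The part of list length in this split was not tested.

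**Figure D4:**
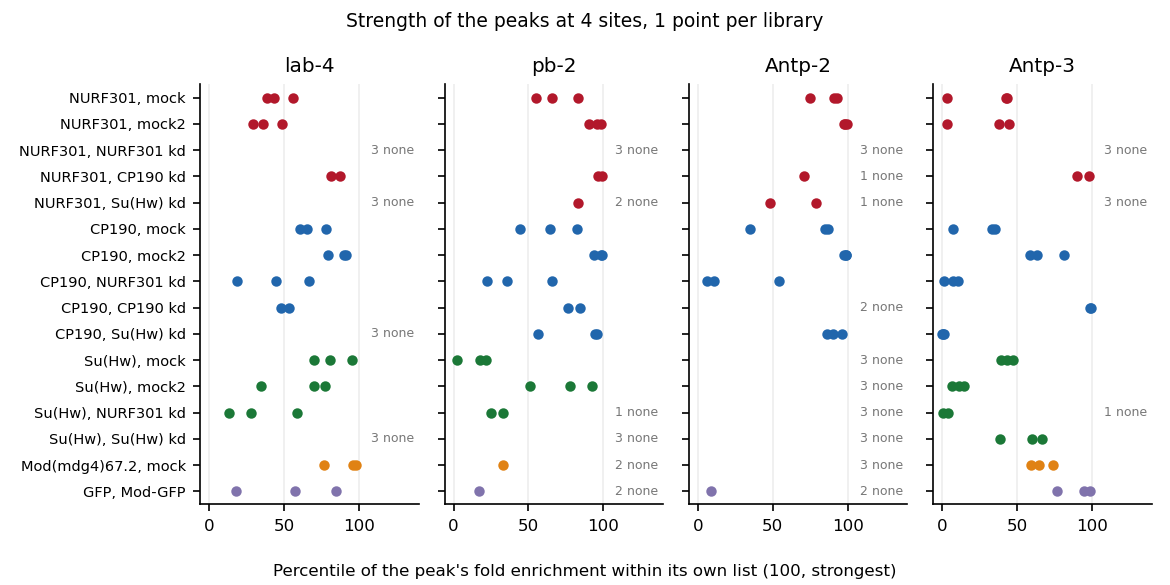
The horizontal axis is the percentile of the peak's fold enrichment within its own list, with 1 point for each library and, in grey at the right, the number of libraries without a peak. Rows are groups of libraries by antibody and condition, and panels are 4 sites. Site lab-4 has no point for any protein after su(Hw) knockdown, whereas Antp-3 has 3 Su(Hw) points and 3 CP190 points there, the latter at percentiles from 0.244 to 1.06.

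Su(Hw) after su(Hw) knockdown checks the target again, with 74, 77 and 96 peaks in the 3 lists. It was called lost at 4 of the 5 sites tested, beside 76.5% in the genome: lab-4, pb-2, Antp-4 and Antp-7, each with 6 of 6 mock and 0 of 3 knockdown libraries (adjusted p = 0.0156, Fisher exact test). Antp-8 went from 4 of 6 to 0 of 3 and was not called, and in all 5 of the 6 reference sites had no peak, beside 97.5% in the genome. Antp-3 kept its Su(Hw) peak in 3 of 3 libraries, as did 49 of the 4498 Su(Hw) reference sites in the genome (1.09%). Among the 965 sites with all 4 proteins, which include Antp-3, 45 kept it (4.66%). The fold enrichments of Su(Hw) at Antp-3 in the knockdown were 4.08, 3.30 and 5.08, at ranks of 30 of 74, 48 of 77 and 33 of 96.

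The pair of sites with all 4 proteins differed in the peaks listed after su(Hw) knockdown. At lab-4, Su(Hw), CP190 and NURF301 were each in 6 of 6 mock and in 0 of 3 knockdown libraries. None of the 3 proteins had a peak in any knockdown list at 706 of the 965 sites with all 4 proteins in the genome (73.2%). At Antp-3, Su(Hw) and CP190 remained in 3 of 3 libraries and NURF301 in 0 of 3, a pattern of 21 of the 965 (2.18%). The CP190 peaks left at Antp-3 were among the weakest of their lists, ranking 4192 of 4227, 3680 of 3688 and 3814 of 3854. The difference between lab-4 and Antp-3 rests on a single site each and was not tested.

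NURF301 after su(Hw) knockdown was called lost at 3 of the 11 sites tested, beside 29% in the genome: lab-4, pb-1 and Antp-3, each with 6 of 6 mock and 0 of 3 knockdown libraries (adjusted p = 0.0410, Fisher exact test). Sites lab-4 and Antp-3 are Su(Hw) sites and pb-1 is not. All 7 sites with NURF301 alone had no peak in the knockdown, where 84.6% of such sites in the genome had none. At an unadjusted p under 0.05 there were 6, beside 50.8% in the genome. Leaving out mock2 replicate 2 gave 6 calls in the complex, and 2330 in place of 1440 in the genome. Leaving out knockdown replicate 1 gave 5 (genome 1753), and leaving out both mock libraries with few peaks gave 10 (genome 4451). Sites lab-1, lab-2 and Antp-2 kept a peak in 2 of 3 libraries, and pb-2, Dfd-3 and Scr-1 in 1 of 3. No site of the complex kept it in all 3, beside 13.7% in the genome. Altogether 10 of the 16 reference sites had no peak, where the share in the genome was 61.7%. Each knockdown library held 18.8% of the reference sites, beside 25.5% ± 1.24 (SD, n = 3) over the genome.

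CP190 after su(Hw) knockdown was kept in all 3 libraries at 9 of its 14 reference sites, beside 39.8% in the genome. These were lab-1, lab-2, pb-1, pb-2, Dfd-3, Scr-1, Scr-5, Antp-2 and Antp-3, of which pb-2 and Antp-3 are Su(Hw) sites. The 6 sites with NURF301 and CP190 all had a peak in every list, as did 67.5% of such sites in the genome. At pb-2 the CP190 peak covered the NURF301 summit in 3 of 3 libraries and the Su(Hw) summit in 0 of 3. After Nurf301 knockdown, by comparison, it covered them in 3 of 3 and 2 of 3. At Antp-4 and Antp-7, which held CP190 and Su(Hw) without NURF301, it was listed in 5 of 6 mock and 0 of 3 knockdown libraries (adjusted p = 0.0802, Fisher exact test, not called). The 1 call among 4 sites tested was lab-4 (adjusted p = 0.0313, Fisher exact test), beside 38% in the genome. The summits of lab-4 lie outside the window, and without it no site was called. At an unadjusted p under 0.05 there were 3 of the 4, lab-4 included, beside 59.3% in the genome. No peak was left at 3 of the 14 reference sites, beside 48.1% in the genome. Without CP190 mock2 replicate 1 there were 3 calls in the complex, and 3316 in place of 2125 in the genome. Mean recovery was 73.8% ± 4.12 (SD, n = 3), beside 46.1% ± 3.31 over the genome.

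Sites were also counted at related genes. Among zen, zen2, bcd, ftz and Ama, the remaining genes of the complex that were listed, there were 4 sites, with 3 NURF301 and 3 CP190 reference sites and no Su(Hw) site. NURF301 was called lost after Nurf301 knockdown at 3 of 3 tested. The share in the genome for this count, and for the same count in the next lists, was 52.4%. The bithorax complex genes Ubx, abd-A and Abd-B had 11 sites, with 9 NURF301, 6 CP190 and 1 Su(Hw) reference sites, and NURF301 was called lost at 4 of 10 tested. The Hox cofactor genes exd and hth, which encode homeodomain partners of Hox proteins, also had 11 sites, with 6, 4 and 4 reference sites, and NURF301 was called lost at 3 of 6 tested. After su(Hw) knockdown, NURF301 was called lost at 1 of 1, 3 of 9 and 0 of 3 tested sites of the 3 lists in that order. The share in the genome was 29%. These counts are few and are descriptions.

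By the number of peaks per list, on the scale log2(number + 1) over the 46 lists, each Hox gene was compared with all protein-coding genes that had a peak in at least 10 lists. The 3 genes most like lab were dup, CG18324 and spdi (Pearson r = 0.939, 0.935 and 0.918). For pb they were CG1648, otp and mtSSB (0.904, 0.901 and 0.887), and for Dfd CG13375, CycY and CG3635 (0.958, 0.957 and 0.955). For Scr they were vis, CG30046 and Hel25E (0.968, 0.967 and 0.963), and for Antp CG34355, CG32700 and brp (0.920, 0.912 and 0.902). The points share libraries and their depth, and these values are descriptions.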

How the data were processed

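The 5 genes, the comparison lists and the tests were chosen with earlier results of these data known. The submitters' processing notes name MACS2 2.2.7.1, Picard 2.25.2, SAMtools 1.12 and Bowtie2 2.4.2, without their roles. Settings, control library and genome build are not given in the sources used here. Lists are per library. The authors deposited, for each peak, a score, a ratio (the fold enrichment at the summit), and the −log10 p and −log10 q of the summit. These values were used only to rank, filter or describe peaks, and were not tested between lists. Gene spans came from the RefSeq annotation of Release 6, used for names and neighbours, and coordinates are those of the peaks, counted from 1.

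With Python 3.11.15, numpy 2.4.6, pandas 2.3.3, scipy 1.17.1 and matplotlib 3.10.9, peaks on the 6 main chromosomes (266 of 190933 lay elsewhere) were merged across the 46 lists at 1 bp. Presence per site was tested by Fisher exact test with Benjamini-Hochberg adjustment over all sites whose number of peaks could reach 0.05. The test was checked on simulated data, in which knockdown libraries held each site at its mock frequency apart from sites removed on purpose. A lower depth of the knockdown libraries was not simulated. Sites named are all sites of the 5 genes; genes most alike are the 3 with the highest r. The division of pb-2 by summits was chosen after seeing the data. Alternatives were stricter peaks, summits extended by 150 bp, merging per antibody, the matching mock series, spans without flanks, a peak in every library, a replicate block and each library left out. The matching series was taken as mock for the Nurf301 and Cp190 knockdowns and as mock2 for su(Hw), a match that the titles do not state. A summit in the window, and leaving out both NURF301 mock libraries with few peaks, were added after seeing the data.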

Additional observations from a re-analysis of the deposited data

Results flagged for a closer look

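Of 27 groups of 6 mock libraries examined, 4 held a library far from the others. Its gap to its nearest neighbour, divided by the group's range, was above Dixon's critical value. Chance flags about 1 in 20 independent groups. The groups here share libraries, so the 4 flags cannot be set against that rate. At Antp-2, mock replicate 3 was the lowest for both NURF301 and CP190. Its NURF301 peak stood at percentile 75.1 of its list, where the nearest library was at 91.1 and the highest at 99.4. Its CP190 peak there stood at percentile 35.0, where the nearest was at 85.2 and the highest at 99.3. CP190 mock2 replicate 1 was the lowest in the other pair of groups. It had a CP190 peak at 10 sites of the complex, where the nearest library had 14 and the highest 16. At Scr-5 its CP190 peak stood at percentile 48.5, where the nearest was at 80.7 and the highest at 98.7.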

How the results depend on the processing

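Calls here rest on presence in 2 or 3 knockdown lists, and reads per library are not known. Without flanks, NURF301 reference sites fell from 16 to 8 and CP190 sites from 14 to 7, and 9 NURF301 sites had a peak in every mock library. Mod(mdg4)67.2 and GFP had 1 site in place of 2 without flanks, with summits extended by 150 bp, or with a summit required in the window, since lab-4 drops out. With the pair of short NURF301 mock lists left out, NURF301 losses rose from 8 to 15 after Nurf301 knockdown (genome 3875 to 6960) and from 3 to 10 after su(Hw) knockdown (genome 1440 to 4451). With a −log10 q of at least 20, CP190 losses after Nurf301 knockdown were 1 in place of 0 (genome 1283 in place of 0). Against the matching mock series, the difference in CP190 recovery there was -39.6 percentage points (97.9% in mock, 58.3% in the knockdown) in place of -25.6. CP190 losses after su(Hw) knockdown were 0 in place of 1 with extended summits, with a summit required in the window, and in the replicate block. The cause of these moves was not tested, other than fewer sites or libraries.

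Leaving out each library in turn gave 8 to 11 NURF301 losses after Nurf301 knockdown and 3 to 6 after su(Hw) knockdown. CP190 losses ranged from 0 to 4 after Nurf301 knockdown, from 1 to 3 after su(Hw) knockdown, and were 0 after Cp190 knockdown when any mock library was left out. Su(Hw) losses stayed at 4 after su(Hw) knockdown and at 0 after Nurf301 knockdown. Under the replicate block the losses of NURF301 were 8 after Nurf301 and 3 after su(Hw) knockdown, and those of Su(Hw) 4 after su(Hw) knockdown. Same-numbered libraries correlated at -0.0994 to 0.118 over 22 pairs. This check cannot tell whether the numbers pair the libraries, because groups are small and several knockdown lists held few peaks. Peak names of NURF301 replicates 2 and 3 after su(Hw) knockdown carry the numbers 3 and 4, and the block there rests on the titles. No site could reach 0.05 against the matching mock series alone, in the block or with 1 library for the Cp190 knockdown, or for NURF301 there without the pair of short mock lists.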
